A study of Mus musculus with 2 samples.

Results

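The cytochrome P450 family was read in white adipose tissue of mice with and without the mitochondrial protease Oma1. Its members were the genes whose single symbol in the platform annotation was Cyp followed by a number, a letter and a number. There were 85 such genes among 19938 genes named on the array, each with 1 probe set, and 24 of the 85 reached the intensity filter explained below. The symbol Cyp51, the lanosterol demethylase of cholesterol synthesis, is outside this rule, as is Cyp2ab1, which read 56 in the Oma1-deficient array and 55 in the wild-type array.

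White adipose tissue came from an Oma1-deficient mouse and from a control mouse labelled Oma1 wild type, both 24 weeks old and both after 20 weeks of high-fat diet. Each genotype had 1 Affymetrix Mouse Gene 1.0 ST array. The labels give neither the fat depot, the strain and sex, the part of Oma1 that was disrupted, nor how many mice gave the RNA of an array. No difference below therefore has a replicate check, no p-value is given, and precision is limited by there being 1 array a genotype.

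Cytochrome P450 enzymes are haem proteins that insert 1 oxygen atom into lipophilic substrates, using electrons passed on by partner proteins of the endoplasmic reticulum or the mitochondria. Members of the first families mostly oxidise drugs, pollutants and eicosanoids and are abundant in liver. Others have fixed tasks in the making or breakdown of steroid hormones, bile acids, vitamin D, retinoic acid and fatty acids. In adipose tissue several P450 enzymes occur in fat cells, in stromal cells and in macrophages.

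Readings are the deposited intensities of a probe set, and a difference is log2(intensity + 1) of the Oma1-deficient array less the same value of the wild-type array. The filter asks for a mean reading of 83 or more, 83 being the median probe set. Probe sets differ in how strongly they bind, so readings were not used to say which gene has more RNA. Sums over a marker list are dominated by its brightest probe sets. Over the other genes that passed the filter with 2 probe sets (545 genes), the SD of a probe set within its gene was 0.17 on the log2 scale. This SD between probe sets describes 1 probe set, not the gap between 2. It is the only error these arrays offer and covers no animals. Over the 11394 genes at or above the filter the median difference was -0.06. Adipocyte markers, which define the labelled tissue, were bright on both arrays. Adipoq read 5255 in the Oma1-deficient array and 6832 in the wild-type array, and the 9 measured adipocyte markers summed to 55122 and 61946 in that order of arrays. The Oma1 probe set itself read 155 in the Oma1-deficient array and 187 in the wild-type array, a difference of -0.27. Whether that probe set covers the disrupted part of Oma1 is not given in the sources used here, so it does not check the label.

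Most P450 genes of fat differed little between the arrays, while a few members were higher in the Oma1-deficient array and Cyp2e1 was lower. Enzymes known from mouse liver were among the higher members, the lower ones and those that differed little. Of the 24 members at or above the filter, 18 differed by less than 1.5-fold. Cyp2f2, Cyp2d40, Cyp3a25, Cyp2d26 and Cyp2d9 were at least 1.5-fold higher in the Oma1-deficient array. That share stands beside 1.26% of all 11394 genes at this size and direction. Of the 5, Cyp2f2 alone was at least 2-fold higher, a size that 0.272% of the 11394 genes reached. Cyp2e1 was the 1 member at least 1.5-fold lower, beside 1.75% of all genes. Cyp3a25, Cyp2d9 and Cyp2d40 reached the filter only through their reading in the Oma1-deficient array. With the filter set on the wild-type array, Cyp2f2 and Cyp2d26 alone were left on the higher side, among 22 members and beside 1.02% of all genes. The median difference was 0.05 over the 24 members and 0.01 over those 22. Closest to the filter, Cyp2d40 lay just inside with a mean reading of 83.1 and Cyp7b1 just outside with 80.4.

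**Figure D1:**
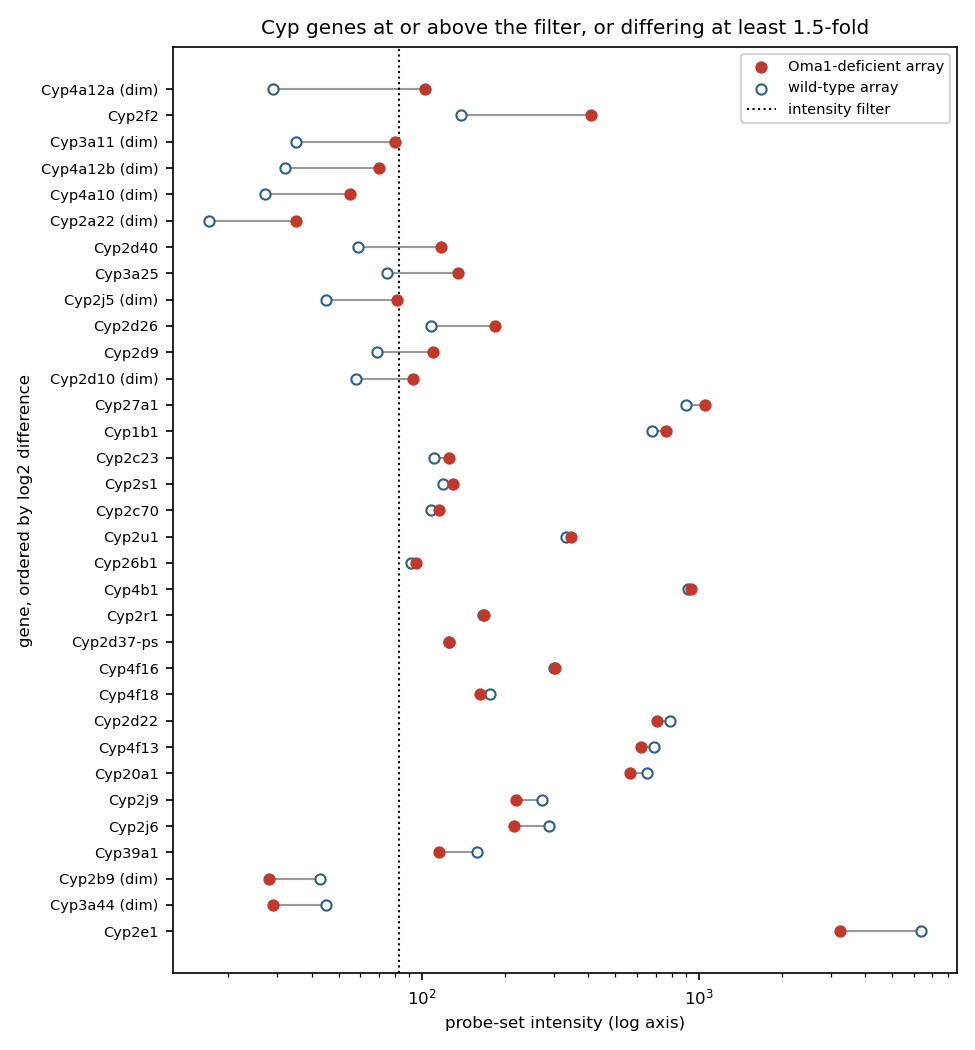
Readings of the 33 P450 genes that reached the filter or differed at least 1.5-fold, on a log axis, in the Oma1-deficient array (filled) and the wild-type array (open), ordered by difference; dim marks genes under the filter, whose intensity of 83 is dotted. Cyp2f2 stood at 410 against 138, and Cyp2e1 at 3237 against 6384, while most of the bright genes nearly overlap.

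Cyp2f2, which oxidises naphthalene in mouse airway club cells and is also abundant in mouse liver, read 410 in the Oma1-deficient array and 138 in the wild-type array. The difference was 1.56, or 2.96-fold, and 9 of the 11394 genes had a higher one. Cyp2e1, which oxidises ethanol, acetone and other small molecules, read 3237 in the Oma1-deficient array and 6384 in the wild-type array. The difference was -0.98, so the wild-type reading was 1.97 times the other. Both readings were far from the dim end, where rounding matters. Among the 197 genes of the same or a higher mean reading, 2 were at least 1.5-fold lower and 0 at least 1.5-fold higher, and Cyp2e1 had the lowest difference of them. Across the scaling, pseudocount and probe-set alternatives Cyp2f2 ranged between 1.47 and 1.63 and Cyp2e1 between -0.98 and -0.92.

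The promoter windows of 5 members are shown so that the gene with the lowest difference, Cyp2e1, can be set beside higher ones, Cyp2f2, Cyp2d26 and Cyp3a25, and beside Cyp2j6, whose difference stayed under 1.5-fold. Each window is 300 bases from RefSeq, build GRCm38.p6, 5′ to 3′ on the gene's strand, with the transcription start at base 251. Cyp3a25 has 2 such windows, and that with the lower coordinates is shown. They lie at chr7:27119705-27120004 on the plus strand for Cyp2f2, chr15:82794196-82794495 on the minus strand for Cyp2d26, chr5:146009568-146009867 on the minus strand for Cyp3a25, chr4:96553602-96553901 on the minus strand for Cyp2j6, and chr7:140763569-140763868 on the plus strand for Cyp2e1. Capitals mark letters that match a searched motif on either strand.
Cyp2f2: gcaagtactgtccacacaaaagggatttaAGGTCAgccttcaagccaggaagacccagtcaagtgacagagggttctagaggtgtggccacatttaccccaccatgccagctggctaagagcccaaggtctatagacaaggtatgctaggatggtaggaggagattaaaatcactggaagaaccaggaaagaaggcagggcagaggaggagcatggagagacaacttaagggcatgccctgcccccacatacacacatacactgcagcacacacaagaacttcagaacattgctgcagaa
Cyp2d26: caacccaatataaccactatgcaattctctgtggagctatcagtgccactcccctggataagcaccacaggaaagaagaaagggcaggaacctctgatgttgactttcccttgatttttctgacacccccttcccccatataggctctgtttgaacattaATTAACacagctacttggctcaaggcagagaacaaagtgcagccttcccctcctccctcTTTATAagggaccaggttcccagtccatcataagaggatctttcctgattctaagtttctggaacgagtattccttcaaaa
Cyp3a25: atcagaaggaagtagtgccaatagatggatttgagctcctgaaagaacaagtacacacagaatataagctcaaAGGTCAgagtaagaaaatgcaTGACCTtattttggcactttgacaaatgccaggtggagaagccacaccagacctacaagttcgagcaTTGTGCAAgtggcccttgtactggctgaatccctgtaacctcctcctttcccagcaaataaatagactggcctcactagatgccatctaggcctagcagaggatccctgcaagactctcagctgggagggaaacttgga
Cyp2j6: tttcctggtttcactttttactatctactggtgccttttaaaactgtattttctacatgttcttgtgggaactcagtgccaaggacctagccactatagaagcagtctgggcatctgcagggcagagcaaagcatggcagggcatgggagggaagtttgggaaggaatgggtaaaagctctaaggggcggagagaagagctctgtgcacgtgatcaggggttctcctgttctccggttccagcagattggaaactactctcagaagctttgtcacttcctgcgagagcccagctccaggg
Cyp2e1: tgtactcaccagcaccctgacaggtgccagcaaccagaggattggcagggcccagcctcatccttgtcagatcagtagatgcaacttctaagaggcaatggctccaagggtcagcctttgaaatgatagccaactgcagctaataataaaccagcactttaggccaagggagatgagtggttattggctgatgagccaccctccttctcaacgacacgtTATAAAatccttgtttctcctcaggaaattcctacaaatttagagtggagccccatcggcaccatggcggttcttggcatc

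The motifs searched, on both strands, were those of the TATA box (TATAAA), and further GTTAAT (a half-site of the liver factor HNF1), AGGTCA (a nuclear receptor half-site), TTGCNNAA (C/EBP) and GCGTG (the core bound by the aryl hydrocarbon receptor). None of the matches in these 5 windows overlapped another. TATA box letters begin at base 220 in both the Cyp2e1 and the Cyp2d26 window, in Cyp2d26 as the reverse complement. Cyp2d26 also holds the HNF1 half-site as ATTAAC at base 161. Cyp2f2 holds the nuclear receptor half-site at base 30, and Cyp3a25 holds it at base 74 and, reversed, at base 95, besides TTGTGCAA at base 162. The Cyp2j6 window holds none of the 5 motifs. RefSeq windows were found for 62 members, 70 windows in all, and TATA box letters were in 35.7% of them, against 13.6% of all 32851 windows of that length. The C/EBP letters were in 22.9% of the member windows and 10.8% of all, the nuclear receptor half-site in 24.3% and 16.3%, the aryl hydrocarbon receptor core in 21.4% and 32.4%, and the HNF1 half-site in 5.71% and 7.1%. Windows of sister genes share sequence, and a match is a run of letters, not a shown binding site.

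Among the other CYP2 genes, the Cyp2d cluster on chromosome 15, whose liver enzymes oxidise drugs and steroids, was split. Cyp2d40 read 117 in the Oma1-deficient array and 59 in the wild-type array, a difference of 0.98. Cyp2d26 read 184 and 108 in that order (0.76). Cyp2d9, a testosterone hydroxylase more abundant in male mouse liver, read 110 in the Oma1-deficient array and 69 in the wild-type array (0.67). Below the filter, Cyp2d10 read 93 in the Oma1-deficient array and 58 in the wild-type array (0.67). Cyp2d22 went the other way by less than the SD between probe sets, at 709 in the Oma1-deficient array and 788 in the wild-type array (-0.15). The pseudogene Cyp2d37-ps read 125 on both arrays. The 10 Cyp2d genes had a median of 0.08, with 6 on the higher side, 3 on the lower and 1 equal. In RefSeq order Cyp2d10 and Cyp2d9 are neighbours among the measured members, as are Cyp2d40 and Cyp2d26. These genes are close copies, so a probe set may take signal from a sister gene.

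The Cyp2j genes, arachidonic acid oxidases in a cluster on chromosome 4, went both ways. Cyp2j6 read 215 in the Oma1-deficient array and 287 in the wild-type array (-0.42). Cyp2j9 read 219 and 272 in that order (-0.31). Both were lower by more than the SD of 0.17 but by less than 1.5-fold. Their neighbour Cyp2j5, a form abundant in mouse kidney and liver, was below the filter and read 81 in the Oma1-deficient array and 45 in the wild-type array (0.83). The remaining 3 Cyp2j genes read between 19 and 24 in both arrays.

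The 13 Cyp2c genes, liver enzymes of drug and arachidonic acid oxidation, had a median of 0.05, with 7 on the higher side, 4 on the lower and 2 equal, and 0 past 1.5-fold. Cyp2c23, an arachidonic acid epoxygenase, read 125 in the Oma1-deficient array and 111 in the wild-type array (0.17). Cyp2c70, which makes muricholic bile acids in mice, read 115 and 108 in that order (0.09). Among the 11 dim Cyp2c genes Cyp2c66 came closest to 1.5-fold from inside, at 58 in the Oma1-deficient array and 39 in the wild-type array (0.56). Cyp2u1, a hydroxylase of long-chain fatty acids, read 347 in the Oma1-deficient array and 333 in the wild-type array (0.06). Cyp2s1, found mainly in epithelia, read 130 and 119 in that order (0.13). Of these 4 genes at the filter, Cyp2c70, Cyp2u1 and Cyp2s1 differed by less than the SD between probe sets, and Cyp2c23 lay at its edge, above it before rounding.

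The Cyp2a and Cyp2b genes, drug-metabolising neighbours of Cyp2f2 on chromosome 7, were all below the filter. Cyp2a12 read 77 in the Oma1-deficient array and 59 in the wild-type array (0.38). Cyp2a22 read 35 and 17 in that order (1.00), a gap of few intensity units at the dim end of the scale. Cyp2b10, the classic phenobarbital-induced gene, read 38 in the Oma1-deficient array and 36 in the wild-type array (0.08). Cyp2b9, more abundant in female mouse liver, read 28 and 43 in that order (-0.60), just past 1.5-fold, and at -0.42 with a pseudocount of 16. Of the 11 members measured between Cyp2s1 and Cyp2t4 on this chromosome, only Cyp2f2 and Cyp2s1 had both readings above the filter.

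**Figure D2:**
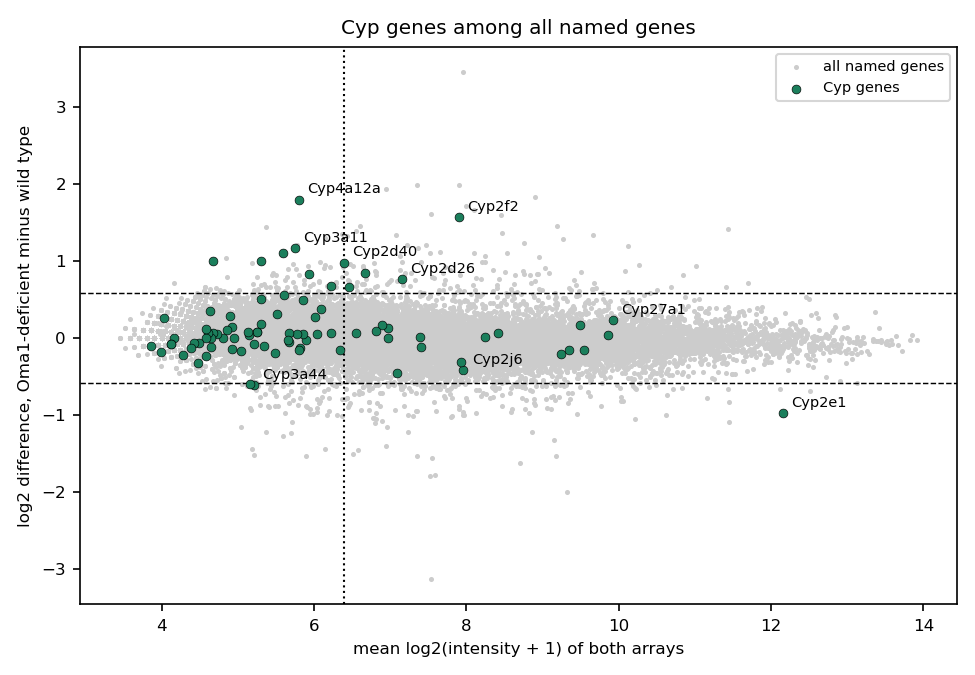
Log2 difference, Oma1-deficient minus wild type, against the mean log2 reading of both arrays for all 19938 named genes (grey) and the 85 P450 genes (green); dashed lines mark 1.5-fold and the dotted line the filter. Cyp2e1 stands alone at the bright lower right, Cyp2f2 and Cyp2d26 are above the upper dashed line right of the filter, and most higher members gather near or left of the filter.

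Of the 6 Cyp3a genes, the main drug and steroid oxidases of mouse liver, Cyp3a25 alone reached the filter. Cyp3a25 read 135 in the Oma1-deficient array and 75 in the wild-type array, a difference of 0.84. A probe set outside the symbol rule, shared by Cyp3a25, Cyp3a57 and Cyp3a59, read 31 on both arrays. Cyp3a11, the neighbour of Cyp3a25 on chromosome 5 and a target of the pregnane X receptor, read 80 in the Oma1-deficient array and 35 in the wild-type array (1.17). Cyp3a44, a form of female mouse liver, read 29 in the Oma1-deficient array and 45 in the wild-type array (-0.62). Cyp3a13, a form also found outside the liver, read 29 and 27 in the same order (0.10). Of the Cyp3a genes 3 were higher and 3 lower, with a median of 0.01. The pregnane X receptor gene Nr1i2 and the constitutive androstane receptor gene Nr1i3, which switch on Cyp3a and Cyp2b genes in liver, were below the filter on both arrays. Nr1i2 read 42 in the Oma1-deficient array and 43 in the wild-type array, and Nr1i3 read 59 and 62 in that order.

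The CYP1 genes are the classic targets of the aryl hydrocarbon receptor, a sensor of dioxin and of plant and microbial compounds. Cyp1b1, which oxidises oestradiol and aromatic hydrocarbons and is common in stromal cells, read 760 in the Oma1-deficient array and 676 in the wild-type array. The difference of 0.17 equals the SD between probe sets at 2 decimals. Cyp1a1 read 30 on both arrays, and Cyp1a2, a liver enzyme, read 38 in the Oma1-deficient array and 36 in the wild-type array (0.08). The receptor gene Ahr read 347 in the Oma1-deficient array and 361 in the wild-type array (-0.06). Tiparp, a receptor target, read 598 and 617 in that order (-0.05). No CYP1 gene differed by more than the spread of probe sets.

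CYP4 enzymes hydroxylate the far end of fatty acids and of leukotrienes. Cyp4b1 read 936 in the Oma1-deficient array and 916 in the wild-type array (0.03). Cyp4f13 read 617 and 690 in that order (-0.16), and Cyp4f16 read 302 and 301 (0.00). Cyp4f18, a leukotriene hydroxylase of mouse neutrophils, read 162 in the Oma1-deficient array and 176 in the wild-type array (-0.12). The bright CYP4 genes were thus nearly equal on the arrays. The dim Cyp4a genes, which in liver and kidney are induced through Ppara, were not. Cyp4a12a, a fatty acid hydroxylase more abundant in male mice, read 103 in the Oma1-deficient array and 29 in the wild-type array. Its difference of 1.79 (3.47-fold) was the highest of all 8544 genes below the filter, and its reading in the Oma1-deficient array alone was above it. Its close copy Cyp4a12b read 70 in the Oma1-deficient array and 32 in the wild-type array (1.11), and Cyp4a10 read 55 and 27 in that order (1.00). Cyp4a14, which responds strongly to Ppara agonists in liver, read 28 in the Oma1-deficient array and 31 in the wild-type array (-0.14). Cyp4a31 read 17 and 14 (0.26). A probe set outside the symbol rule, shared by Cyp4a10, Cyp4a31 and Cyp4a32, read 32 in the Oma1-deficient array and 27 in the wild-type array (0.24). Within the cluster 3 genes were thus at least 1.5-fold higher, beside 1.01% of all genes below the filter, and 2 were not. Cyp4a12a and Cyp4a12b are close copies, so their probe sets may share signal. The regulator Ppara read 164 in the Oma1-deficient array and 178 in the wild-type array (-0.12). With a pseudocount of 16 the difference of Cyp4a12a was 1.40, that of Cyp4a12b 0.84 and that of Cyp4a10 0.72.

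**Figure D3:**
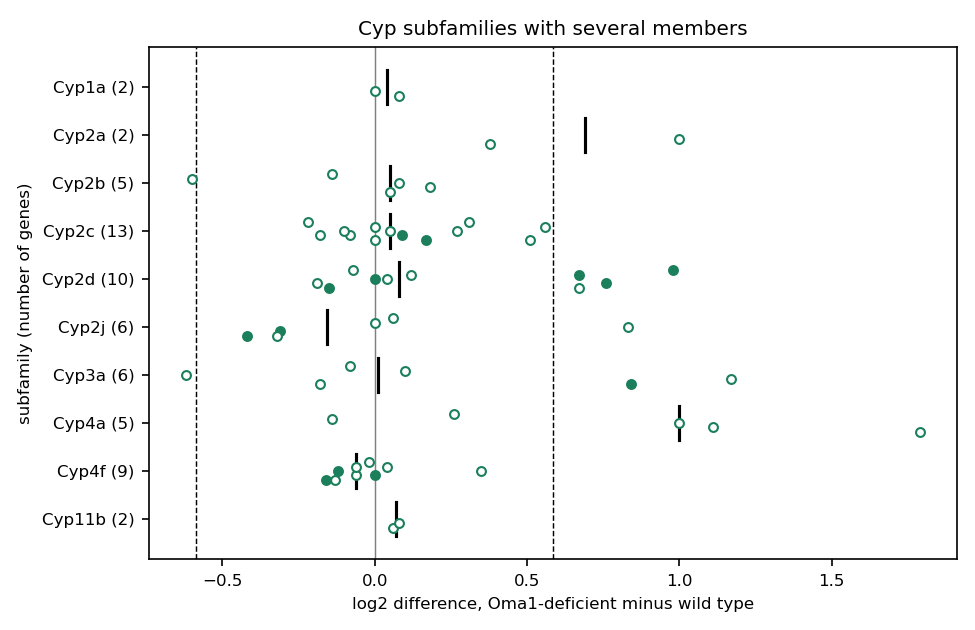
Log2 difference, Oma1-deficient minus wild type, of each gene in the P450 subfamilies with several members; filled points reached the filter, open points did not, bars are medians and dashed lines mark 1.5-fold. The Cyp4a, Cyp2d, Cyp3a and Cyp2j groups each hold members near 0 beside members past 1.5-fold, whereas the 9 Cyp4f genes lie between -0.16 and 0.35.

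Among enzymes of sterol and bile acid metabolism, Cyp27a1, a mitochondrial sterol hydroxylase also active in macrophages, read 1053 in the Oma1-deficient array and 900 in the wild-type array (0.23). This was more than the SD between probe sets. Macrophage markers were higher alongside it. Among 11 measured markers, 10 lay on the higher side, with a median of 0.28 and summed readings of 38348 in the Oma1-deficient array and 32556 in the wild-type array, and none was below the filter. Fcgr1, an Fc receptor, was the 1 marker past 1.5-fold, at 503 in the Oma1-deficient array and 308 in the wild-type array (0.71). Their part in the Cyp27a1 difference was not tested. Cyp39a1, an oxysterol hydroxylase of liver, read 115 in the Oma1-deficient array and 158 in the wild-type array (-0.45). Cyp7b1, another oxysterol hydroxylase, read 76 and 85 in that order (-0.16). The liver genes of bile acid synthesis were dim. Cyp7a1, the rate-limiting enzyme, read 32 in the Oma1-deficient array and 26 in the wild-type array (0.29), and Cyp8b1, which makes cholic acid, read 68 and 48 (0.49). Cyp46a1, the cholesterol hydroxylase of neurons, read 75 in the Oma1-deficient array and 72 in the wild-type array (0.06).

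The 5 measured steroid hormone enzymes gave no reading at or above the filter, and Cyp19a1 was not among them. Cyp11a1, which starts steroid synthesis from cholesterol, read 31 in the Oma1-deficient array and 28 in the wild-type array (0.14). Cyp17a1, needed for androgens, read 52 and 58 in that order (-0.15), and Cyp21a1, needed for corticosteroids, 49 and 50 (-0.03). The 5 genes of this role lay between -0.15 and 0.14. Of 7 measured markers of steroid-producing cells 4 were higher and 3 lower, with a median of 0.00. Star, the cholesterol carrier of those cells, read 81 in the Oma1-deficient array and 77 in the wild-type array, and Mc2r, a corticotropin receptor that mouse fat cells also carry, read 386 and 598 (-0.63).

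The 2 measured vitamin D enzymes, Cyp24a1 not among them, and the 3 measured retinoic acid enzymes were close to equal. Cyp2r1, which starts vitamin D activation, read 168 in the Oma1-deficient array and 167 in the wild-type array (0.01), and Cyp27b1, which completes it, read 35 and 37 (-0.08). Cyp26b1, which breaks down retinoic acid outside the liver, read 95 in the Oma1-deficient array and 91 in the wild-type array (0.06). Cyp26a1, the retinoic acid-induced form, read 23 and 25 in that order (-0.12). Cyp20a1, for which no substrate is established, read 565 in the Oma1-deficient array and 651 in the wild-type array (-0.20).

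The 61 members below the filter read between 13 and 103 in the Oma1-deficient array and between 14 and 85 in the wild-type array, and 39 of them read under 50 on both. No detection call was used, so these readings cannot be told from background, and rounding to whole numbers is coarse there. The median of the 61 was 0.04 (32 on the higher side, 24 on the lower, 5 equal), while the 8544 dim genes as a whole had a median of 0.07. Among the dim members 7 exceeded 1.5-fold upward, beside 1.01% of all dim genes, and 2 downward, beside 0.948%. The 7 were Cyp4a12a, Cyp3a11, Cyp4a12b, Cyp2a22, Cyp4a10, Cyp2j5 and Cyp2d10. The first 5 of these were at least 2-fold higher, beside 0.117% of the dim genes, which were 10 genes in all. Over all 85 members 12 exceeded 1.5-fold upward, beside 1.15% of all 19938 genes, and 3 downward, beside 1.40%.

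Hepatocyte markers were higher in the same array as Cyp2f2 and the higher Cyp2d, Cyp3a and Cyp4a genes. Of 17 listed markers 15 were measured, with 13 on the higher side and a median of 0.82. Of all genes at the filter, 4171 were higher and 7096 lower. At 1.5-fold, 8 hepatocyte markers passed upward, all of them at the filter, where 1.26% of genes did, and 1 downward, where 1.75% did. Their readings summed to 9402 in the Oma1-deficient array and 4354 in the wild-type array. Alb, which encodes albumin, read 4523 in the Oma1-deficient array and 1692 in the wild-type array (1.42). The apolipoprotein gene Apoa1 had the largest difference of the list, 1.83, at 904 in the Oma1-deficient array and 253 in the wild-type array. The other plasma protein genes past 1.5-fold were Ambp (1.21), Apoc3 (1.10), Apoa2 (1.05), Apoh (0.92), Ttr (0.91) and Ahsg (0.82). Of these, Apoh reached the filter only through its reading in the Oma1-deficient array, 137 against 72 in the wild-type array. G6pc, the glucose-releasing phosphatase of liver, went the other way at 83 and 133 in that order (-0.67), as did Tat, a tyrosine transaminase, at 146 and 181 (-0.31). No marker was at 0, and Fga, a fibrinogen chain, read 53 in the Oma1-deficient array and 42.4 in the wild-type array. Cyp2e1, also abundant in liver, was lower in the array in which these markers were higher. The part of the hepatocyte markers in the P450 differences was not tested, and in bulk tissue more cells of a type and more RNA per cell cannot be told apart.

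For club cells, the other main site of Cyp2f2 in mice, a list of 8 markers of club cells and other lung epithelium was measured. Of these 6 were higher, with summed readings of 451 in the Oma1-deficient array and 336 in the wild-type array. Most markers of this list and of the kidney, intestinal and epididymis lists below were dim. Dim genes leaned upward as a whole, with 5185 of all 8544 higher, 2447 lower and 912 equal. The defining club cell marker Scgb1a1 read 15 on both arrays, near the lowest reading on either array, which was 8. Scgb3a1, a related secretoglobin, was the only one at or above the filter, at 137 in the Oma1-deficient array and 71 in the wild-type array (0.94). The 6 kidney tubule markers were fixed because Cyp4a and Cyp2j genes are abundant in kidney. They summed to 278 in the Oma1-deficient array and 304 in the wild-type array, with 5 of 6 higher. The one lower, Lrp2, which encodes the endocytic receptor megalin, was also the only one at the filter, at 65 and 112 in that order (-0.78), and Kap, which marks male mouse kidney, read 27 and 25. Of 6 intestinal markers 4 were higher, with sums of 300 in the Oma1-deficient array and 222 in the wild-type array, and Lgals4 reached the filter at 150 and 82 (0.86). The 6 epididymis and testis markers summed to 264 in the Oma1-deficient array and 266 in the wild-type array, with 4 higher, 1 lower and 1 equal. Adam7, an epididymal gene below the filter, read 21 in the Oma1-deficient array and 62 in the wild-type array (-1.52). Prm1, a protamine of sperm and the only one at the filter, read 105 and 76 in that order (0.46), while Lcn5 stood at 0.29 and Ddx4 at 0.06. Scgb3a1, Lgals4 and Prm1 reached the filter only through their readings in the Oma1-deficient array, and Lrp2 only through its wild-type reading. The part of these lists in the P450 differences was not tested.

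The 6 marker lists of resident cells of fat, macrophages included, had medians between -0.55 and 0.28. All their measured markers reached the filter, where 4171 of 11394 genes were higher and 7096 lower. At 1.5-fold, 1.26% of those genes were higher and 1.75% lower. Cyp2e1 is known from fat cells, whose markers had a median of -0.12 with 8 of 9 lower and 0 past 1.5-fold (Adipoq -0.38, Pnpla2 -0.29, Cidec -0.21 and Fabp4 -0.17 were farthest from 0), while Cyp2e1 itself stood at -0.98. All 10 endothelial markers were lower, with a median of -0.38 and sums of 9265 in the Oma1-deficient array and 12076 in the wild-type array, and Robo4 alone passed 1.5-fold (-0.65). Of 8 mesothelial markers 7 were lower (median -0.55), with sums of 1761 and 2586 in that order, and Upk3b (-0.76), Krt19 (-0.73) and Lrrn4 (-0.73) passed 1.5-fold. Fibroblast markers, beside which Cyp1b1 can be read, had a median of -0.05, with 3 of 8 higher and sums of 18376 and 18393. Dpp4 (-0.55), Lum (0.36), Pdgfra (0.23) and Pi16 (-0.21) were farthest from 0 among them. The 8 mural markers had a median of 0.07. Among them 1, Cnn1, a calponin of smooth muscle, was at least 2-fold higher (1.06), beside 0.272% of all genes at the filter. What part these lists had in any P450 difference was not tested.

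**Figure D4:**
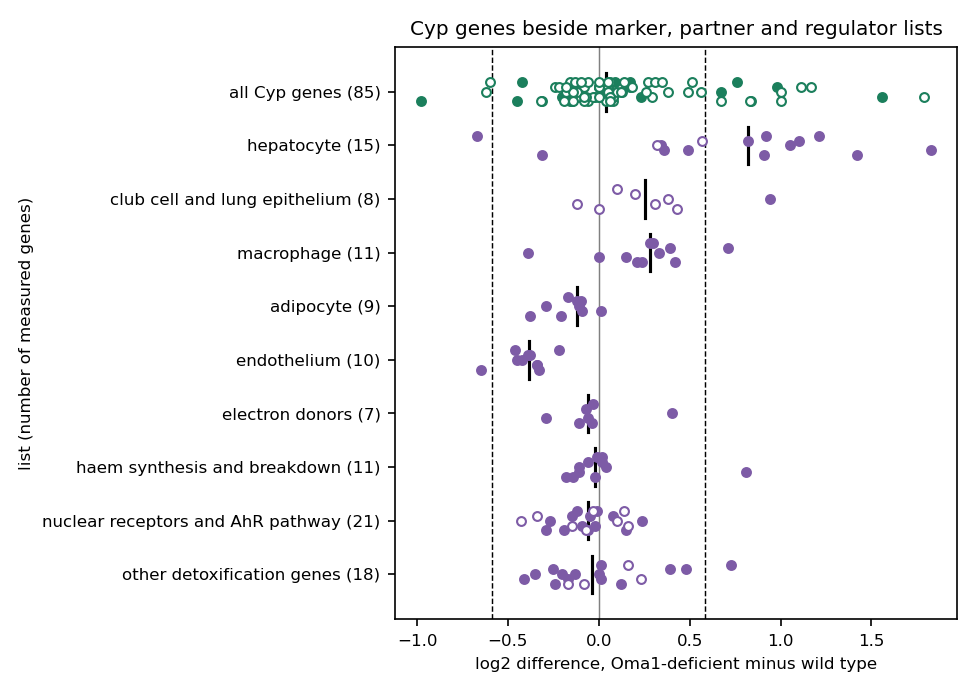
Log2 difference, Oma1-deficient minus wild type, of all 85 P450 genes and of the genes in marker, partner and regulator lists; filled points reached the filter, open points did not, bars are medians and dashed lines mark 1.5-fold. Hepatocyte markers have a median of 0.82 and endothelial markers one of -0.38, while electron donors, haem enzymes and regulators centre near 0.

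Most partners of P450 enzymes differed little. Of 7 measured electron donors, 6 were lower and 1 higher, with a median of -0.06 and 0 past 1.5-fold. Cyb5a, which encodes cytochrome b5, read 5297 in the Oma1-deficient array and 5462 in the wild-type array (-0.04). Cyb5r3, its reductase, read 4329 and 3291 in that order (0.40), and Cyb5b, the form of the outer mitochondrial membrane, 3517 and 4311 (-0.29). Pgrmc1 stood at -0.11 and Cyb5r1 at -0.07. The reductase genes Por and Fdxr were not analysed here. Of 11 haem enzymes, 4 were higher and 7 lower, with a median of -0.02. Among these 1 was at least 1.5-fold higher, beside 1.26% of all genes at the filter. Alas1, the first enzyme of haem synthesis in most tissues, read 2385 in the Oma1-deficient array and 2704 in the wild-type array (-0.18), whereas Alad, the second enzyme, read 2433 and 1384 (0.81).

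Regulators of P450 genes were also close to equal. Of 21 measured, which were nuclear receptors, members of the aryl hydrocarbon receptor pathway and the factors Cebpa, Cebpb and Nfe2l2, 6 were higher and 15 lower, with 0 past 1.5-fold and a median of -0.06. Rxra, the common partner of the receptors, read 818 in the Oma1-deficient array and 999 in the wild-type array (-0.29). Nr1h3, an oxysterol receptor, read 980 and 1185 in that order (-0.27). Below the filter, the liver receptors Nr5a2 and Nr0b2 stood at -0.43 and -0.34. Hnf4a, a receptor of liver and gut, read 94 and 107 in that order (-0.19). Other detoxification enzymes showed no common direction, with 8 of 18 higher, 10 lower and a median of -0.04. Ces1f, a carboxylesterase, read 614 in the Oma1-deficient array and 369 in the wild-type array (0.73). Gstt1, a glutathione transferase, read 1115 and 799 in that order (0.48). Aox1, an aldehyde oxidase, read 944 in the Oma1-deficient array and 1251 in the wild-type array (-0.41).

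A few more P450 genes lie outside the symbol rule. Cyp51 read 384 in the Oma1-deficient array and 561 in the wild-type array (-0.55). Tbxas1, the thromboxane synthase of macrophages and platelets, read 670 and 576 in that order (0.22). Ptgis, the prostacyclin synthase, read 459 in the Oma1-deficient array and 407 in the wild-type array (0.17). Another 7 probe sets named a Cyp gene together with other genes. One, shared by Cyp4v3 and Klkb1, read 407 in the Oma1-deficient array and 565 in the wild-type array (-0.47). One shared by Cyp3a44 and copies of Cyp3a41 read 16 in the Oma1-deficient array and 25 in the wild-type array (-0.61). Another, which also names Cyp3a11, read 17 and 26 in that order (-0.58), while the probe set of Cyp3a11 alone was higher (1.17).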

How the data were processed

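Per the labels' protocols, Trizol was used to extract total RNA from white adipose tissue, and biotin-labelled cRNA went onto 1 array per genotype. The authors deposited 1 intensity per probe set, linear and rounded to whole numbers, for 35512 probe sets. Both arrays have a median of 83. How probes were summarised, background-corrected and scaled is not given in the sources used here.

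A pseudocount of 1 was added, log2 was taken and probe sets of a gene were averaged. Symbols came from GEO's platform annotation, and all 85 members matched RefSeq (GRCm38.p6) by gene identifier. A gene reached the filter if its mean log2 value was at or above that of 83. Sizes of 1.5-fold and 2-fold were counted, beside the same share of all genes. The members and lists were chosen with earlier results of these data known. Named were Oma1, all members at the filter or past 1.5-fold, dim members where a role had no other, members on either side of 1.5-fold, and, of each list, the genes at the filter past 1.5-fold or otherwise up to 4 with the largest differences. Further members and list genes were added to cover a role or cluster after their values were seen. Alternatives are given at the end. Python 3.11.15, numpy 2.4.6, pandas 2.3.3, statsmodels 0.14.6 and matplotlib 3.10.9 were used.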

Additional observations from a re-analysis of the deposited data

Results flagged for a closer look

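A signal outside the comparisons came from the probe set shared by Cyp2a5 and Cyp2a4, which the single-symbol rule leaves out. It read 96 in the Oma1-deficient array and 75 in the wild-type array, a difference of 0.35. It was picked for a mean reading at the filter and a difference above the SD of 0.17 between probe sets. Its wild-type reading was under the filter. Only higher probe sets could be picked, so the lower one shared by Cyp4v3 and Klkb1 (-0.47) was not considered. Cyp2a5 oxidises coumarin and nicotine and is abundant in mouse liver, and Cyp2a4 is a closely similar steroid hydroxylase.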

How the results depend on the processing

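No paired analysis was possible because each genotype has 1 array, and for the same reason no replicate could be left out. All alternatives were planned. Of the 15 members at least 1.5-fold different, 0 changed sign under quantile normalisation, loess, centring, a pseudocount of 16 or the brightest probe set. A pseudocount cannot change a sign, and the brightest probe set repeats the main value because each member has 1 probe set. Centring shifts all genes by the same amount, too small to change these signs. Of the 15, 4 came under 1.5-fold in 1 or more of these alternatives. They were Cyp2b9 (-0.54 with centring, -0.42 with the pseudocount of 16), Cyp3a44 (-0.56 and -0.44), Cyp2d10 (0.56 with that pseudocount) and Cyp2d9 (0.57). The count of 5 members at the filter and at least 1.5-fold higher became 2 with the filter on the wild-type array or on each array, 0 with it at the upper quartile of 326, and 12 without it. The count of 1 lower became 3 without the filter. The count of 1 at least 2-fold higher became 2 with centring, 0 at the upper quartile and 6 without the filter. Only 8 members reached the upper quartile. Cyp2f2, the brightest of the 5 higher members, had a mean reading of 238, so each count of 0 there was fixed in advance. Over all members, the 3 at least 1.5-fold lower became 1 with centring or with the pseudocount of 16, and 5 when probe sets with several Cyp symbols were added. Medians of 4 lists moved when only members at the filter were kept, each then resting on 1 gene. They were club cell 0.94, epididymis and testis 0.46, kidney tubule -0.78 and intestine 0.86. Each such gene reached the filter only through the array in which it was higher. Scaling moved the median of the genes at the filter from -0.06 to -0.01 with quantile normalisation or loess, and the split at 1.5-fold from 143 higher and 199 lower to 169 and 148, or 165 and 154. Centring gave 182 and 139. Dim readings, without detection calls, limit what the members below the filter can show.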
